A study of Mus musculus with 12 samples.

Results

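The 40 genes described here encode keratins, the proteins of desmosomes, adherens junctions and tight junctions, chains of the epithelial basement membrane and its anchors, and a few regulators and membrane proteases of epithelia. They were listed by gene symbol, with earlier results of these data known, as 12 keratins, 9 desmosome genes, 3 adhesion genes, 5 claudins, 3 regulators, 5 basement membrane genes and 3 genes of trafficking and surface proteolysis. All 40 had at least 1 FPKM (fragments scaled to gene length and library size, the unit of the deposited table) in at least 3 libraries, which 14107 of 19083 genes in the table reached. Of the 40, 37 reached 1 FPKM in all 12 libraries, Dsg3 in 10, and Krt13 and Ovol1 in 8 each. Each library came from the palatal shelves of a single C57BL/6 mouse embryo labelled embryonic day 14. The embryos were Pax9-/- mutants (6 libraries) or control littermates (6 libraries), and the controls were Pax9+/- (3) or Pax9+/+ (3). By treatment, there were 3 mutants and 3 controls from Pax9+/- dams given the Wnt agonist WAY-262611 each day through the tail vein up to embryonic day 14, and 3 mutants and 3 controls without it. The genotype is that of the whole embryo, epithelium and mesenchyme alike, and the sources used here give no dose of the compound.

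The palatal shelf is a core of neural crest mesenchyme covered by an epithelium with a basal layer and a flat outer layer, the periderm. Keratins pair, an acidic chain with a basic chain, into filaments that end on desmosomes at cell contacts and on hemidesmosomes at the basement membrane. The basal layer is known for Krt5 with Krt14, the simple epithelium and periderm for Krt8 with Krt18, the suprabasal layers of skin for Krt1 with Krt10, and those of the lining of the mouth for Krt4 with Krt13. When opposing shelves meet, the medial edge epithelium adheres, forms a seam and is then removed. In bulk tissue, fewer epithelial cells and less RNA per epithelial cell cannot be told apart, and this applies to every value below.

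The table's columns carry 1 of 2 prefixes. One prefix marks 8 libraries, 2 per group, and the other marks 4, 1 per group. They are called the 8-library set and the 4-library set here. The sample titles also carry a number, with 1 number for the treated and 1 for the untreated embryos of each set, so that a title number holds mutants and controls of 1 treatment and 1 set. What the prefix stands for and whether a title number is a litter cannot be told from the sources used here. Within each group, library 1 is from the 4-library set and libraries 2 and 3 are from the 8-library set. All 3 Pax9+/- embryos are in the 8-library set. They are untreated controls 2 and 3 and treated control 2, so control genotype is not balanced over treatment. Any comparison of treatment that uses controls, and the interaction with genotype, therefore mixes treatment with control genotype. The genotype comparisons of treated and of untreated embryos likewise rest on different mixes of controls. The first principal component (52.5% of the variance over all genes) separated the sets. Depth was 36.79 to 49.81 M reads per library. Pax9 itself had 4.75 to 7.3 FPKM in mutants, against 20.3 to 22.8 FPKM in Pax9+/- and 28.5 to 37.5 FPKM in Pax9+/+ controls, which follows the labelled genotypes. Pax9 reads thus remained in every mutant, and which part of the gene the allele deletes cannot be told from the sources used here.

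The 40 genes spanned a wide range of levels. On the FPKM scale, which is per length, 4 basal-type keratins led with means over all 12 libraries of 194 ± 99.8 for Krt17, 177 ± 68.6 for Krt14, 161 ± 66.7 for Krt5 and 151 ± 63.3 for Krt15 (SD, n = 12). The SDs include the difference between the sets and say little on the order of these 4. That order is of all libraries pooled: in mutants Krt14 averaged 159 ± 63.8, Krt15 150 ± 66.1, Krt17 144 ± 60.3 and Krt5 140 ± 60.3 FPKM, and in controls Krt17 averaged 245 ± 110, Krt14 195 ± 74.3, Krt5 183 ± 71 and Krt15 152 ± 66.7 FPKM (SD, n = 6 each). After a gap came Epcam with 50.7 ± 13, Perp with 47.7 ± 12.8 and Dsp with 42.2 ± 10.4. Perp was above Dsp in every library, while Epcam was above Perp in some libraries and below it in others. At the low end were Krt10 (3.41 ± 0.977), Dsg3 (3.29 ± 1.9), Krt1 (2.46 ± 1.36) and Ovol1 (1.35 ± 0.602). Krt5, Krt14, Cdh1 and Epcam, markers of epithelium, were present in every library. The lowest value rested on few reads: Krt13 had 6 reads in untreated mutant 1 and 775 in the library with most.

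Promoters of 4 members are shown because the genes differ in direction or layer: Krt10 (suprabasal keratin, lower in mutants), Spint1 (protease inhibitor, lower), Epcam (adhesion, lower) and Cldn1 (tight junction, higher). They are RefSeq sequences on GRCm38.p6, 300 bases across the start of transcription, on the gene's own strand, 5′ to 3′. The Krt10 promoter lies at chr11:99389315-99389614 on the minus strand, that of Spint1 at chr2:119237110-119237409 on the plus strand, that of Epcam at chr17:87635729-87636028 on the plus strand, and that of Cldn1 at chr16:26371790-26372089 on the minus strand. Capitals mark matches on either strand to the letters of the TATA box (TATAAA), the GC box (GGGCGG), an AP-2 type motif (GCCNNNGGC), an AP-1 type motif (TGANTCA) or a Grainyhead type motif (AACNGGTT), and no match overlaps another in these 4.
Krt10: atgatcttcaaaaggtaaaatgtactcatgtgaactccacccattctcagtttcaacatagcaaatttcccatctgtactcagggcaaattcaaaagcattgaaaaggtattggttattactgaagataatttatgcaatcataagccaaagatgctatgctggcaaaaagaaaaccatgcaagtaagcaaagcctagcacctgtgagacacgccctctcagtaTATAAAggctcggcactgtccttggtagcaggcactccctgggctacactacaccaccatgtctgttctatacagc
Spint1: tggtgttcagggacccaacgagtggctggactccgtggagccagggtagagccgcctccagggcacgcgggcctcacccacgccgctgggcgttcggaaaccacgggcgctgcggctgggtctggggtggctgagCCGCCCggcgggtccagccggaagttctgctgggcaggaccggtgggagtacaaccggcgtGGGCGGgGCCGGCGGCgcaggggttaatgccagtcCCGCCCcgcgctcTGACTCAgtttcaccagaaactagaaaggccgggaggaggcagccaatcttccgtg
Epcam: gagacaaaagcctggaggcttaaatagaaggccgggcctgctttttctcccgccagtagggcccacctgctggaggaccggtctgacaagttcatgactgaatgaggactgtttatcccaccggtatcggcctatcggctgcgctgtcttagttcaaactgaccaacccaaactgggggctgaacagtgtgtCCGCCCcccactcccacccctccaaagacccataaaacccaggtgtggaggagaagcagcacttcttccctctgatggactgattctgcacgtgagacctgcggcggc
Cldn1: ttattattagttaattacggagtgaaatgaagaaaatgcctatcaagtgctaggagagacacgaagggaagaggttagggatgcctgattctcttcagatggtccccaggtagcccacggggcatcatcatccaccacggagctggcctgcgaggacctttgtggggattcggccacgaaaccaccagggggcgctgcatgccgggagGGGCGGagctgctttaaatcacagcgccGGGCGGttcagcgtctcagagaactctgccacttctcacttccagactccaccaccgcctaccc
Krt10 had a TATAAA with its first base at -26 from the start and no other match. Spint1 had GGGCGG on either strand at -115, -54 and -19, GCCNNNGGC at -47 and TGANTCA at -6. Epcam had GGGCGG on the other strand at -58, and Cldn1 had it at -42 and -14. RefSeq promoters were at hand for 19 of the 40 members, and among these 3 held TATAAA (13.6% of 32851 mouse promoters of this length do), 9 GGGCGG (35.7%), 5 GCCNNNGGC (16.6%), 3 TGANTCA (7.81%) and 1 AACNGGTT (2.09%). A match is a run of letters, not a shown binding site. Cldn1, which was higher in mutants, and Epcam, which was lower, both had only GGGCGG matches.

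Many of the 40 are neighbours in the genome (mm10, GENCODE M21 gene bounds). Chromosome 11 holds Krt10, Krt13, Krt15, Krt19, Krt14, Krt17 and Jup between 99385254 and 100397763. Chromosome 15 holds Krt7, Krt5, Krt1, Krt4, Krt8 and Krt18 between 101411043 and 102032027, and chromosome 18 holds Dsc3, Dsc2, Dsg3 and Dsg2 between 19960930 and 20604521. Neighbours need not be called together: within the chromosome 11 stretch Krt17 fell in mutants and Krt15 gave no call, as described below, though the difference between them was not tested. Some values can hold reads of other genes, since no source used here gives the strand setting or the handling of repeated sequence. Of the Krt8 transcript's 50-base windows 26.9% also occur elsewhere in the transcriptome, most in the pseudogene Krt8-ps. That share was 14.4% for Krt14 (most with Krt16), 8.52% for Krt5 (most with Krt6a), 6.5% for Itga6 and 3.99% for Krt17, and under 1% for all other members. Exons of Krt5, Krt7, Krt8, Krt10, Dsp, Dsg2, Cldn3, Esrp1, Esrp2, Ovol1, Lama3 and Itgb4 overlap a gene on the opposite strand.

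As a first view, the log2(FPKM + 0.5) values of the 40 genes were averaged within each library. The mean was lower in mutants than in controls of the same title number in all 4 cases. Among treated embryos of the 8-library set the mutants had 4.01 and 3.9, against 4.41 and 4.36 in controls. Among untreated embryos of that set the mutants had 4 and 3.97, against 4.15 and 4.27 in controls. The 4-library set gave 3.2 in the mutant and 3.33 in the control with treatment, and 3.03 in the mutant and 3.48 in the control without it. The differences of mutant minus control were -0.43, -0.22, -0.13 and -0.45 in that order. The distance between the sets was larger than the distance between genotypes, with 4.13 ± 0.19 in the 8-library set (SD, n = 8) and 3.26 ± 0.19 in the 4-library set (SD, n = 4). No test was made of this mean, since its members were chosen with results known.

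**Figure D1:**
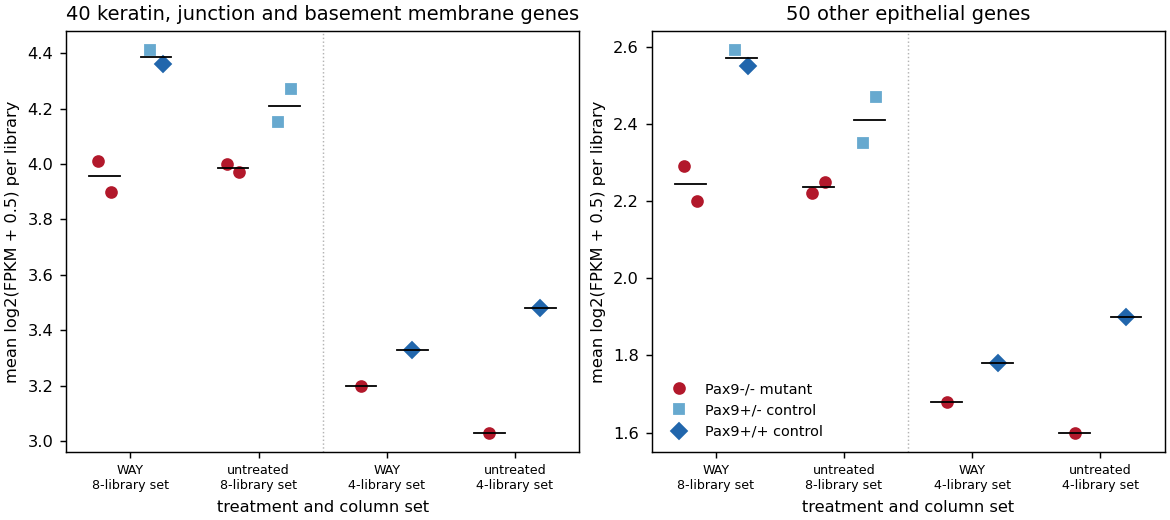
Mean log2(FPKM + 0.5) per library over the 40 genes (left) and over 50 other epithelial genes (right), by treatment and column set. Each point is 1 embryo and bars are means of the mutants or of the controls; in the 8-library set mutants lie between 3.9 and 4.01 and controls between 4.15 and 4.41 on the left.

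The comparison of mutants with controls over both treatments asks what loss of Pax9 changed in this gene group. Of the 40 genes, 25 fell and 1 (Cldn1) rose in mutants (limma with a term for column set, adjusted p under 0.05 by Benjamini-Hochberg over all genes). Over all 14107 genes 9.87% passed, 6.6% lower and 3.27% higher. The members' median log2 fold change was -0.31, against -0.03 for all genes tested. The largest falls were in Krt1, Dsc3, Krt17, Krt10 and Dsg3. In direction alone, 32 of the 40 were lower in mutants within each of the 4 title numbers, as were 21.9% of all genes.

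Among the keratins, 7 of 12 fell and none rose. Krt1, a suprabasal keratin (chromosome 15, 101845426 to 101850794, minus strand), had 1.12 FPKM in the lowest mutant, a median of 1.46 and 1.62 in the highest, against 2, 3.91 and 4.63 FPKM in controls. All 6 mutants were below all 6 controls. In log2 units, with errors here and below as SE, it fell by 0.99 ± 0.12 (adjusted p = 0.0016 in limma). Krt10, its partner, had 2.14, 2.61 and 3.33 FPKM (lowest, median, highest) in mutants, against 3.38, 4.05 and 5.4 FPKM in controls. Here too the groups did not overlap, and the highest mutants and lowest controls were those of the 4-library set. Krt10 fell by 0.56 ± 0.11 (adjusted p = 0.014 in limma).

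Krt17, a keratin of the periderm, of basal cells of the embryo and of epithelial appendages (chromosome 11, 100256217 to 100261029, minus strand), had 60.4, 178 and 188 FPKM in mutants, against 103, 268 and 390 FPKM in controls. The ranges overlapped across the sets, but every mutant was below every control of its own title number. Krt17 fell by 0.76 ± 0.09 (adjusted p = 0.0013 in limma). The basal pair had smaller fold changes. Krt5 had 53, 173 and 190 FPKM in mutants, against 88.9, 205 and 258 FPKM in controls, and fell by 0.43 ± 0.09 (adjusted p = 0.017 in limma). Krt14 had 73, 191 and 218 FPKM in mutants, against 96.6, 216 and 290 FPKM in controls, and fell by 0.31 ± 0.08 (adjusted p = 0.044 in limma, 0.058 with the title number as a block).

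Simple-epithelial keratins were mixed. Krt7 had 2.07, 4.16 and 4.38 FPKM in mutants, against 2.57, 5.12 and 7.94 FPKM in controls, and fell by 0.4 ± 0.09 (adjusted p = 0.019 in limma). Krt18 had 26.6, 37.3 and 42.9 FPKM in mutants, against 30.5, 45.3 and 61.2 FPKM in controls, and fell by 0.28 ± 0.07 (adjusted p = 0.039 in limma, 0.054 with the block). Its partner Krt8 did not pass, at 16, 30.9 and 34.7 FPKM in mutants, against 17.5, 34.7 and 45.1 FPKM in controls (-0.22 ± 0.07, adjusted p = 0.077 in limma). Krt19, which has no tail domain and is found in simple and basal cells, had a median of 35.1 FPKM in mutants and 34.5 FPKM in controls (log2 fold change -0.14, 95% interval -0.35 to 0.07).

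The remaining keratins gave no call in the fit of all 12 libraries. Krt15, a basal keratin made at a level near that of Krt14, had 56.6, 179 and 216 FPKM in mutants, against 67.6, 163 and 235 FPKM in controls (-0.04, 95% interval -0.24 to 0.16). It was the member with the least uniform direction, lower in mutants in 2 title numbers and higher in the other 2. Krt4 had 1.01, 7.04 and 8.19 FPKM in mutants, against 1.37, 6.43 and 8.06 FPKM in controls (-0.02, interval -0.23 to 0.18). Krt13, which pairs with Krt4 in the lining of the mouth, had 0.066, 4.87 and 6.29 FPKM in mutants, against 0.396, 6.68 and 10.7 FPKM in controls (-0.5 ± 0.15, adjusted p = 0.055 in limma), so the size was like that of Krt10 but its error was larger.

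**Figure D2:**
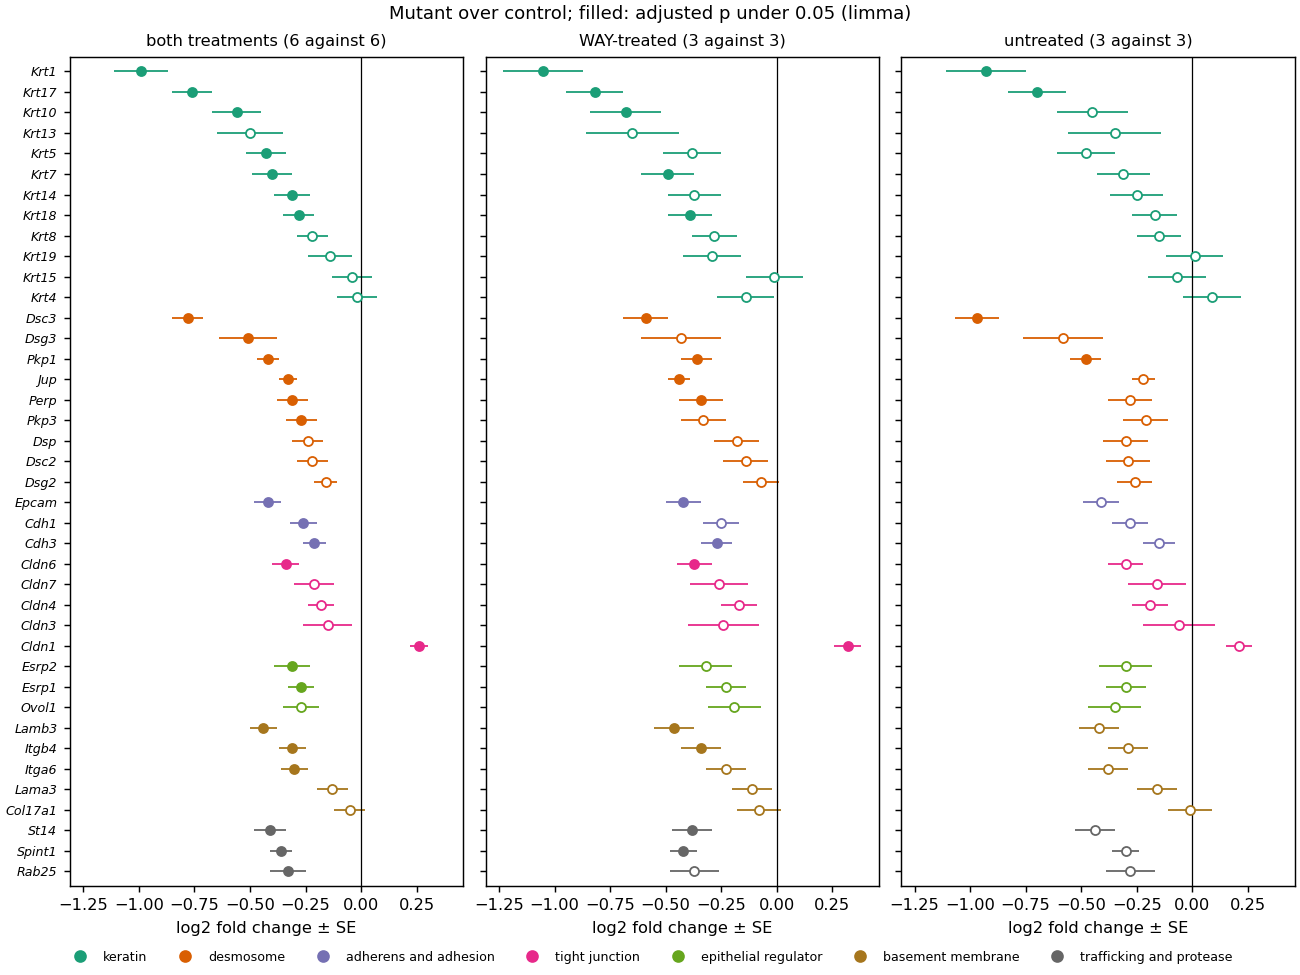
Log2 fold change of mutant over control for all 40 genes (points) with its SE (bars), over both treatments, in treated and in untreated embryos; colours give the gene's role, and filled points have an adjusted p under 0.05 in limma. Over both treatments Krt1 (-0.99), Dsc3 (-0.78) and Krt17 (-0.76) lie farthest to the left, and Cldn1 is the only filled point to the right of 0.

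Of the 9 desmosome genes 6 fell. Dsc3, a desmosomal cadherin of stratified epithelia (chromosome 18, 19960930 to 20002351, minus strand), had 4.19, 7.07 and 8.5 FPKM in mutants, against 6.2, 13.1 and 16.2 FPKM in controls. The 8-library controls, at 12.5 to 16.2 FPKM, stood above every mutant library. Dsc3 fell by 0.78 ± 0.07 (adjusted p = 0.00021 in limma), the smallest p of the 40. Its neighbour Dsc2, a broadly made cadherin, had 6.22, 11 and 13.2 FPKM in mutants, against 7.31, 13.2 and 15.2 FPKM in controls, and did not pass (-0.22 ± 0.07, adjusted p = 0.081 in limma).

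Dsg3, the desmoglein of stratified epithelia, had 0.434, 3.19 and 4.44 FPKM in mutants, against 1.24, 4.58 and 5.87 FPKM in controls, and fell by 0.51 ± 0.13 (adjusted p = 0.033 in limma). Dsg2, the desmoglein of simple epithelia, had 4, 5.89 and 7.12 FPKM in mutants, against 4.63, 6.98 and 7.5 FPKM in controls (-0.16 ± 0.05, adjusted p = 0.079 in limma). The plaque proteins followed. Pkp1, a plakophilin of stratified epithelia, had 5.08, 16.6 and 18.3 FPKM in mutants, against 6.64, 23 and 25.1 FPKM in controls, and fell by 0.42 ± 0.05 (adjusted p = 0.0013 in limma). Jup, plakoglobin, which serves desmosomes and adherens junctions, had 16.7, 20.8 and 22.1 FPKM in mutants, against 20.3, 25.1 and 30.8 FPKM in controls, and fell by 0.33 ± 0.04 (adjusted p = 0.00068 in limma).

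Perp, a tetraspan protein of desmosomes, had 29.6, 44.7 and 53.7 FPKM in mutants, against 33.7, 57.7 and 68.9 FPKM in controls, and fell by 0.31 ± 0.07 (adjusted p = 0.022 in limma). Pkp3 had 5.33, 9.91 and 10.7 FPKM in mutants, against 6.68, 11 and 14.4 FPKM in controls, and fell by 0.27 ± 0.07 (adjusted p = 0.043 in limma, 0.055 with the block). Desmoplakin (Dsp), which ties the plaque to keratin filaments, did not pass. It had 26.5, 41.1 and 48.9 FPKM in mutants, against 29.4, 48.4 and 58.4 FPKM in controls (-0.24 ± 0.07, adjusted p = 0.058 in limma).

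All 3 adhesion genes fell. Epcam, a surface adhesion protein of epithelia, had 33.6, 46.1 and 51.3 FPKM in mutants, against 39.9, 62.3 and 75.9 FPKM in controls (-0.42 ± 0.06, adjusted p = 0.0032 in limma). Cdh1, E-cadherin, had 20.5, 29.3 and 34.2 FPKM in mutants, against 23.4, 36.1 and 40.3 FPKM in controls (-0.26 ± 0.06, adjusted p = 0.02 in limma). Cdh3, P-cadherin of the basal layer, had 17.8, 18.9 and 20.2 FPKM in mutants, against 20.2, 21.5 and 24.6 FPKM in controls (-0.21 ± 0.05, adjusted p = 0.023 in limma). Cdh3 and its neighbour Cdh1 on chromosome 8 were thus both lower, with Cdh3 much more even across the sets.

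The claudins, strand proteins of tight junctions, were the role with calls in both directions. Cldn1, a claudin of the skin barrier (chromosome 16, 26356642 to 26371841, minus strand), had 9.69, 10.2 and 11.3 FPKM in mutants, against 7.93, 8.57 and 9.14 FPKM in controls. Every mutant was above every control, and Cldn1 rose by 0.26 ± 0.04 (adjusted p = 0.005 in limma). Cldn6, a claudin of embryonic epithelia, went the other way with 21.4, 22.6 and 23.3 FPKM in mutants, against 24.6, 27.9 and 33 FPKM in controls. Again the groups did not overlap, and Cldn6 fell by 0.34 ± 0.06 (adjusted p = 0.0068 in limma). Cldn3, Cldn4 and Cldn7 had log2 fold changes of -0.15, -0.18 and -0.21 and did not pass, with medians of 5.72, 21.2 and 7.04 FPKM in mutants, against 5.85, 24.4 and 8.05 FPKM in controls.

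Of the regulators, the paired RNA-binding proteins Esrp1 and Esrp2, which direct epithelial splicing, both fell. Esrp1 had 8.72, 10.2 and 11.5 FPKM in mutants, against 9.2, 12.7 and 14.2 FPKM in controls (-0.27 ± 0.06, adjusted p = 0.024 in limma). Esrp2 had 5.51, 7.47 and 8.76 FPKM in mutants, against 6.53, 8.85 and 11.7 FPKM in controls (-0.31 ± 0.08, adjusted p = 0.043 in limma), with exons that overlap those of Nfatc3 on the opposite strand. Ovol1, a zinc-finger transcription factor of epithelia, had 0.463, 1.22 and 2.06 FPKM in mutants, against 0.746, 1.67 and 2.39 FPKM in controls (-0.27 ± 0.08, adjusted p = 0.065 in limma).

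Of the 5 basement membrane genes 3 fell. Lamb3, a laminin chain under stratified epithelia, had 3.57, 9.89 and 11.4 FPKM in mutants, against 5.14, 13.9 and 15.1 FPKM in controls (-0.44 ± 0.06, adjusted p = 0.0027 in limma). The hemidesmosome integrin chains followed. Itgb4 had 5.68, 11.3 and 11.9 FPKM in mutants, against 7.58, 13.3 and 15.4 FPKM in controls (-0.31 ± 0.06, adjusted p = 0.012 in limma). Itga6 had 10.1, 13.2 and 14.1 FPKM in mutants, against 11.2, 16.3 and 19.5 FPKM in controls (-0.3 ± 0.06, adjusted p = 0.015 in limma). The other 2 gave no call. Lama3, the laminin chain that joins Lamb3, had a median of 5.97 FPKM in mutants and 6.37 FPKM in controls (-0.13, 95% interval -0.28 to 0.01). Col17a1, the transmembrane collagen of the hemidesmosome, had 34.4 FPKM in mutants and 32.6 FPKM in controls (-0.05, interval -0.2 to 0.11).

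The surface protease St14 (matriptase), its inhibitor Spint1 and the recycling GTPase Rab25 all fell. St14 had 4.72, 6.24 and 6.51 FPKM in mutants, against 5.51, 8.75 and 9.92 FPKM in controls (-0.41 ± 0.07, adjusted p = 0.0053 in limma). Spint1 had 4.51, 8.15 and 8.53 FPKM in mutants, against 5.68, 10 and 12 FPKM in controls (-0.36 ± 0.05, adjusted p = 0.0018 in limma). Enzyme and inhibitor were thus both lower. Rab25 had 1.84, 5.45 and 5.68 FPKM in mutants, against 2.85, 6.22 and 8.46 FPKM in controls (-0.33 ± 0.08, adjusted p = 0.033 in limma).

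The calls depend on how the sets and the epithelium are modelled. Without a term for the column set 2 members passed (Cldn1 and Cldn6), when 0.851% of all genes did. Within the 8-library set alone 17 members and 3.13% of all genes passed. Of the 26 calls 16 remained there, and Krt13 was gained. Krt5, Krt14, Krt18, Dsg3, Pkp3, Perp, Cdh1, Cldn1, Esrp2 and Rab25 were lost. With a term for heterozygous embryos, a class found only in that set, 9 members and 2.37% of all genes passed. With the title number as a block 23 passed, when 8.24% of all genes did. Leaving out untreated control 1 gave 15 (4.93% of all genes) and leaving out untreated control 3 gave 17 (4.84%). With a term for the mean of 50 other epithelial genes no member passed, and 0.0142% of all genes did. In that fit Dsc3 had -0.57 ± 0.14 (adjusted p = 0.51 in limma), Krt1 -0.56 ± 0.25 and Krt17 -0.38 ± 0.16, while Esrp2 stood at 0.18 and Krt7 at 0. The mean used as the term itself followed set and genotype. It was 1.6 to 1.9 in the 4-library set and 2.2 to 2.59 in the 8-library set, with mutants below controls in every title number. A fit with this term therefore cannot tell genotype from the level of epithelial genes, and its loss of calls decides nothing about either.

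**Figure D3:**
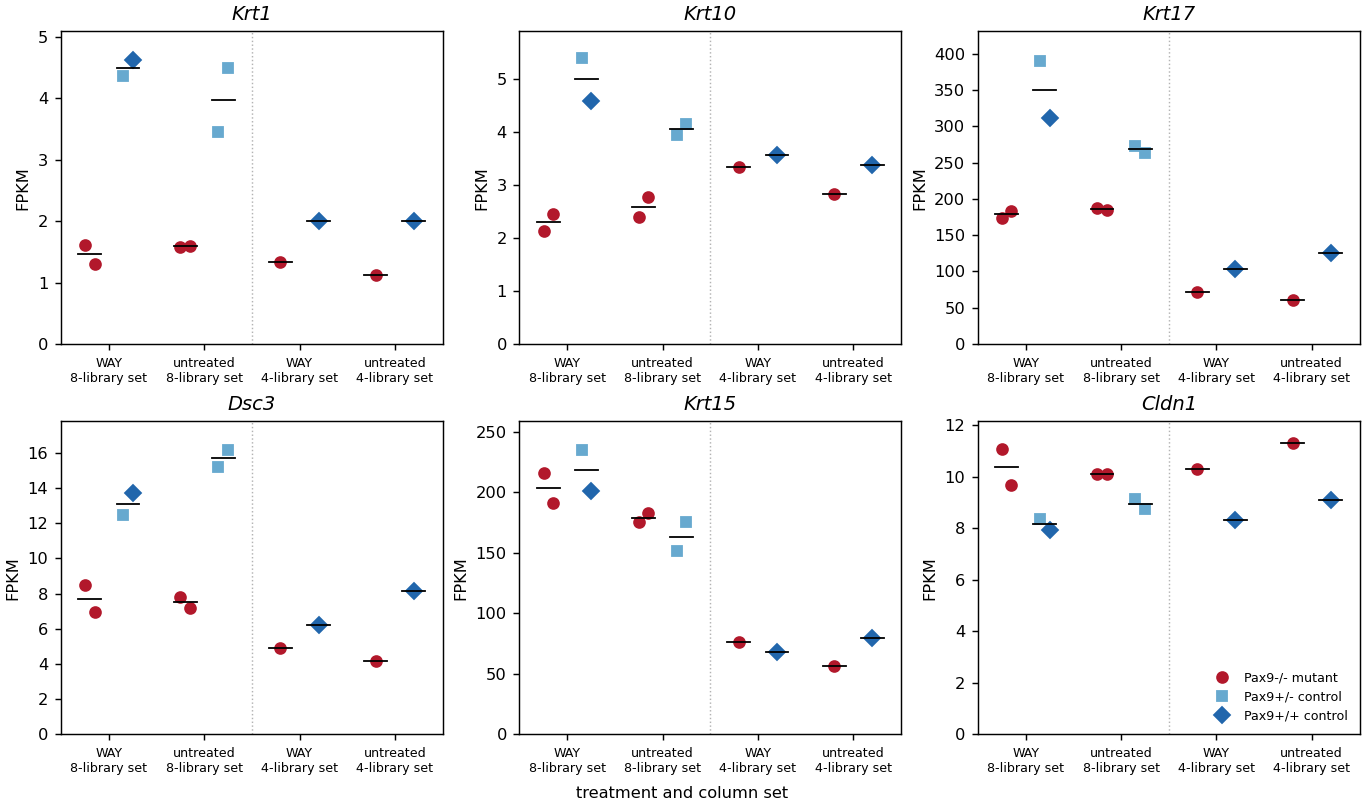
FPKM of 6 genes in each of the 12 libraries, by treatment and column set; bars are means of the mutants or of the controls. Krt1 stays between 1.12 and 1.62 FPKM in all mutants, Krt17 and Dsc3 differ by genotype within each title number, Krt15 follows the column set, and Cldn1 is above the controls in every mutant.

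Within title numbers the size of the difference varied by gene. The mean log2 difference of Krt1, mutant minus control, was -1.35 in treated and -1.09 in untreated embryos of the 8-library set, and -0.45 in treated and -0.63 in untreated embryos of the 4-library set, so it was larger in the 8-library set. Krt10 went alike, with -0.97, -0.56, -0.09 and -0.22 in the same order. Krt17 had no such split, at -0.96, -0.52, -0.52 and -1.06. Dsc3, at -0.73, -1.02, -0.31 and -0.88, also fell more in the 8-library set within each treatment, though with a smaller gap than Krt1. The median over the 40 genes was -0.42, -0.22, -0.13 and -0.41 in that order, so that the treated pair of the 4-library set gave the smallest difference. The medians over all genes were -0.04, -0.02, -0.03 and -0.02. Members lower in mutants numbered 39, 34, 36 and 39, where 58.3%, 57.5%, 58.7% and 54.6% of all genes were lower. A genotype by column set term, added after the values were seen, passed for no member and for 0.0638% of all genes (Krt1 -0.68 ± 0.17, adjusted p = 0.46 in limma). In that fit Dsc3 had -0.28 ± 0.12 and Krt17 0.04 ± 0.2.

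Ratios between keratins within a library also separated some groups. The ratio of Krt17 to Krt14, both acidic chains, was 0.828 to 0.98 in mutants and 1.07 to 1.35 in controls, with no overlap. The ratio of Krt1 to Krt10 was 0.531 to 0.754 in mutants and 0.808 to 1.08 in controls of the 8-library set, and 0.396 to 0.403 in mutants and 0.563 to 0.592 in controls of the 4-library set. Krt15 to Krt14 went the other way, with 0.776 to 1.11 in mutants and 0.687 to 0.851 in controls, and these ranges overlap. Krt5 to Krt14, the basal pair, had 0.726 to 0.973 in mutants and 0.851 to 1.05 in controls. Krt8 to Krt18 had 0.599 to 0.846 in mutants and 0.573 to 0.798 in controls. These ratios were picked after the values were seen and are given without a test.

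**Figure D4:**
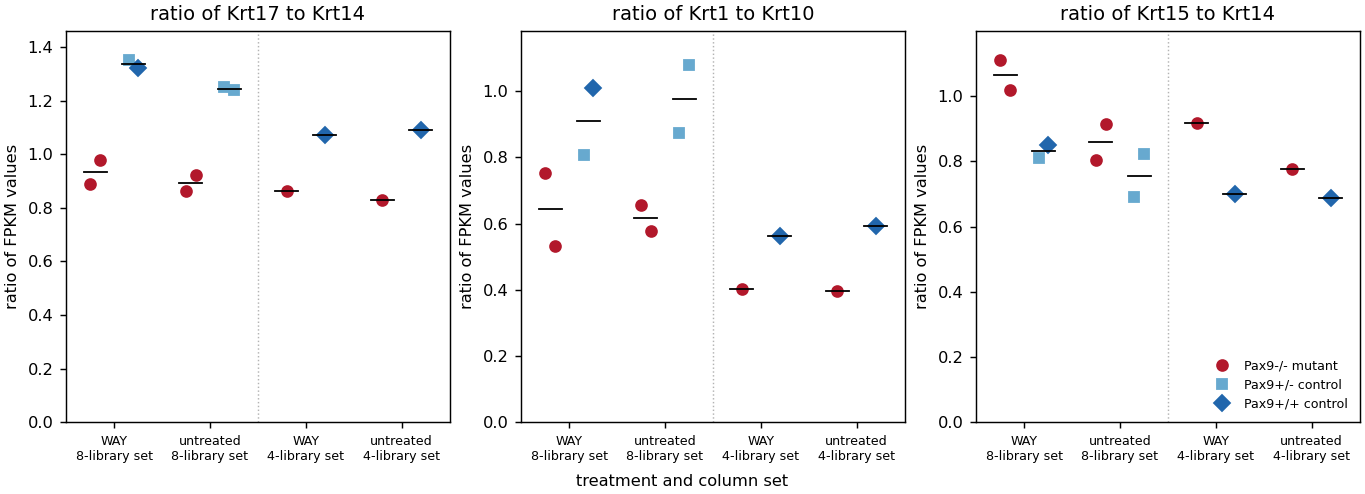
Ratios of FPKM values of keratins in each library, by treatment and column set; bars are means of the mutants or of the controls. Krt17 to Krt14 is below 1 in every mutant and above 1 in every control, Krt1 to Krt10 is lower in mutants within each title number, and Krt15 to Krt14 overlaps between genotypes.

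Without treatment, 4 of the 40 genes fell in mutants and none rose, when 0.737% of all genes passed (0.454% lower). Dsc3 had 4.19, 7.79 and 7.2 FPKM in untreated mutants, against 8.13, 15.2 and 16.2 FPKM in untreated controls. It fell by 0.97 ± 0.1 (adjusted p = 0.0015 in limma). Pkp1 had 5.08, 17.8 and 15.8 FPKM in mutants, against 7.79, 22.3 and 23.6 FPKM in controls, and fell by 0.48 ± 0.07 (adjusted p = 0.016 in limma). Both are desmosomal, and mutants were below controls of the same set in each case.

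The other 2 calls were keratins. Krt17 had 60.4, 188 and 185 FPKM in untreated mutants, against 126, 273 and 263 FPKM in untreated controls, and fell by 0.7 ± 0.13 (adjusted p = 0.042 in limma, 0.058 with the block). Krt1 had 1.12, 1.58 and 1.6 FPKM in mutants, against 2, 3.45 and 4.49 FPKM in controls, and fell by 0.93 ± 0.18 (adjusted p = 0.046 in limma, 0.07 with the block). With the block, 2 members (Dsc3 and Pkp1) and 0.525% of all genes passed. The median over members was -0.29, against -0.01 over all genes. Krt4, Krt19 and Cldn1 were the 3 members with a log2 fold change above 0. Leaving out any 1 of the 12 libraries gave 1 to 8 calls, when 0.198% to 1.38% of all genes passed, with 1 in the absence of untreated mutant 1 or 3 or untreated control 1 or 3.

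In treated embryos, 16 of the 40 fell in mutants and Cldn1 rose, when 12.8% of all genes passed (7.79% lower and 5.02% higher). The median over members was -0.33, against -0.04 over all genes. Krt1 had 1.34, 1.62 and 1.31 FPKM in treated mutants, against 2.01, 4.36 and 4.63 FPKM in treated controls, and fell by 1.05 ± 0.18 (adjusted p = 0.011 in limma). Krt17 had 72, 174 and 183 FPKM in mutants, against 103, 390 and 311 FPKM in controls, and fell by 0.82 ± 0.13 (adjusted p = 0.0085 in limma). Its highest control value, 390 FPKM, was also the highest of all 12 libraries.

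Jup had 17, 20.4 and 21.3 FPKM in treated mutants, against 21.3, 30.8 and 28.6 FPKM in treated controls, and fell by 0.44 ± 0.05 (adjusted p = 0.0019 in limma). Dsc3 had 4.91, 8.5 and 6.94 FPKM in mutants, against 6.2, 12.5 and 13.7 FPKM in controls, and fell by 0.59 ± 0.1 (adjusted p = 0.0097 in limma). Krt10 had 3.33, 2.14 and 2.46 FPKM in mutants, against 3.57, 5.4 and 4.59 FPKM in controls, and fell by 0.68 ± 0.16 (adjusted p = 0.029 in limma). Cldn1 was higher in each treated mutant, with 10.3, 11.1 and 9.69 FPKM in mutants, against 8.34, 8.38 and 7.93 FPKM in controls (0.32 ± 0.06, adjusted p = 0.014 in limma). The other calls were falls in Krt7, Krt18, Pkp1, Perp, Cdh3, Epcam, Cldn6, Lamb3, Itgb4, St14 and Spint1, with log2 fold changes from -0.49 (Krt7) to -0.27 (Cdh3). The count depended on single libraries, as did that over all genes. Without treated mutant 2 it was 4 (1.45% of all genes, members' median -0.35), and without treated mutant 3 it was 6 (4.28%, median -0.29). Without treated control 2 it was 9 (6.89%), and without untreated control 3 it was 11 (6.44%). Whether genotype acted differently with treatment is tested by the interaction, given next.

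The comparison of treated with untreated embryos asks what the Wnt agonist did to these genes. No member passed over both genotypes, in mutants or in controls with the column-set term, and the fits in which 1 did are named below. Over both genotypes no gene of the 14107 passed (0%), with 2890 genes and 2 members at an unadjusted p under 0.05. The 2 members were Ovol1 and Krt15. Ovol1 had 0.28 ± 0.08 (adjusted p = 0.14 in limma, 95% interval 0.09 to 0.46), with 0.636, 1.54 and 2.06 FPKM in treated mutants and 0.837, 1.79 and 2.39 FPKM in treated controls, against 0.463, 1.23 and 1.21 FPKM in untreated mutants and 0.746, 1.61 and 1.72 FPKM in untreated controls. Each treated library of Ovol1 was above the untreated libraries of its own genotype and set. Krt15 had 0.23 ± 0.09 (adjusted p = 0.2 in limma, interval 0.03 to 0.44). Within a column set, treatment and title number cannot be told apart. Control genotype is not balanced over treatment either, as given above.

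In mutants alone no gene passed (0%), with 388 genes and 1 member at an unadjusted p under 0.05. That member was Ovol1, at 0.35 ± 0.12 (adjusted p = 1 in limma). The genotype-lowered keratins Krt1 and Krt17 had treated values of 1.34, 1.62 and 1.31 FPKM and of 72, 174 and 183 FPKM in mutants, against the untreated 1.12, 1.58 and 1.6 FPKM and 60.4, 188 and 185 FPKM given above. Over all 40 genes the median difference in mutants was 0.01 and the range -0.06 to 0.35. In controls 2.66% of all genes passed (0.836% higher and 1.82% lower) and no member did. There Jup had 0.18 ± 0.05 (adjusted p = 0.065 in limma) and Dsc3 -0.29 ± 0.1 (adjusted p = 0.093 in limma). With the title number as a random effect Ovol1 passed over both genotypes and Jup in controls, when 11.6% of all genes passed in each comparison. The consensus correlation of that fit was -0.13, and a negative value narrows the error of a comparison made between title numbers. That fit is therefore less strict here and gives no guard against embryos sharing a title number. In controls Jup also passed with the heterozygous term (8.82% of all genes), and Dsc3 passed, lower with treatment, without treated control 3 (13.4%).

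The interaction, treated genotype difference minus untreated, passed for no member and no gene (0%), with 1646 genes and 2 members at an unadjusted p under 0.05. Jup had -0.21 ± 0.07 (adjusted p = 0.4 in limma, 95% interval -0.37 to -0.06) and Dsc3 0.38 ± 0.14 (adjusted p = 0.4 in limma, interval 0.08 to 0.68). In words, the genotype difference of Jup was larger in treated embryos and that of Dsc3 larger in untreated ones, neither past the threshold. The count of 16 falls in treated and 4 in untreated embryos is therefore no shown difference between them. Untreated controls 2 and 3 but only treated control 2 are Pax9+/-, so the interaction cannot separate treatment from control genotype.

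The largest differences in this gene group lay between the column sets. Of the 40 genes, 36 were higher in the 8-library set and none lower, when 43.8% of all genes passed, 20.8% higher and 23% lower. The median over members was 0.81 on the log2 scale, against -0.02 over all genes. Krt10, Cdh3, Cldn1 and Cldn6 gave no call, with 0.02, 0.08, -0.05 and 0.1. The keratins of the lining of the mouth led. Krt13 had 4.43 to 10.7 FPKM in the 8-library set and 0.066 to 0.447 FPKM in the 4-library set, a difference of 3.16 ± 0.15 (adjusted p = 4.7e-07 in limma). Krt4 had 5.56 to 8.19 FPKM in the 8-library set and 1.01 to 1.5 FPKM in the 4-library set, a difference of 2.12 ± 0.1 (adjusted p = 3.7e-07 in limma). In both genes the sets were far apart whatever the genotype.

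Among desmosome genes Dsg3 differed most, with 2.9 to 5.87 FPKM in the 8-library set and 0.434 to 1.37 FPKM in the 4-library set (1.77 ± 0.13, adjusted p = 4.7e-06 in limma). Pkp1 had 15.8 to 25.1 FPKM in the 8-library set and 5.08 to 7.79 FPKM in the 4-library set (1.62 ± 0.05, adjusted p = 5.9e-08 in limma). The basal-type keratins went together, with Krt15 and Krt17 at 1.44 each, Krt5 at 1.37 and Krt14 at 1.26. Lamb3, at 1.31 ± 0.07, led the basement membrane genes, of which all 5 were higher. Cdh3 varied little between the sets, with 18.1 to 24.6 FPKM in the 8-library set and 17.8 to 20.8 FPKM in the 4-library set.

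**Figure D5:**
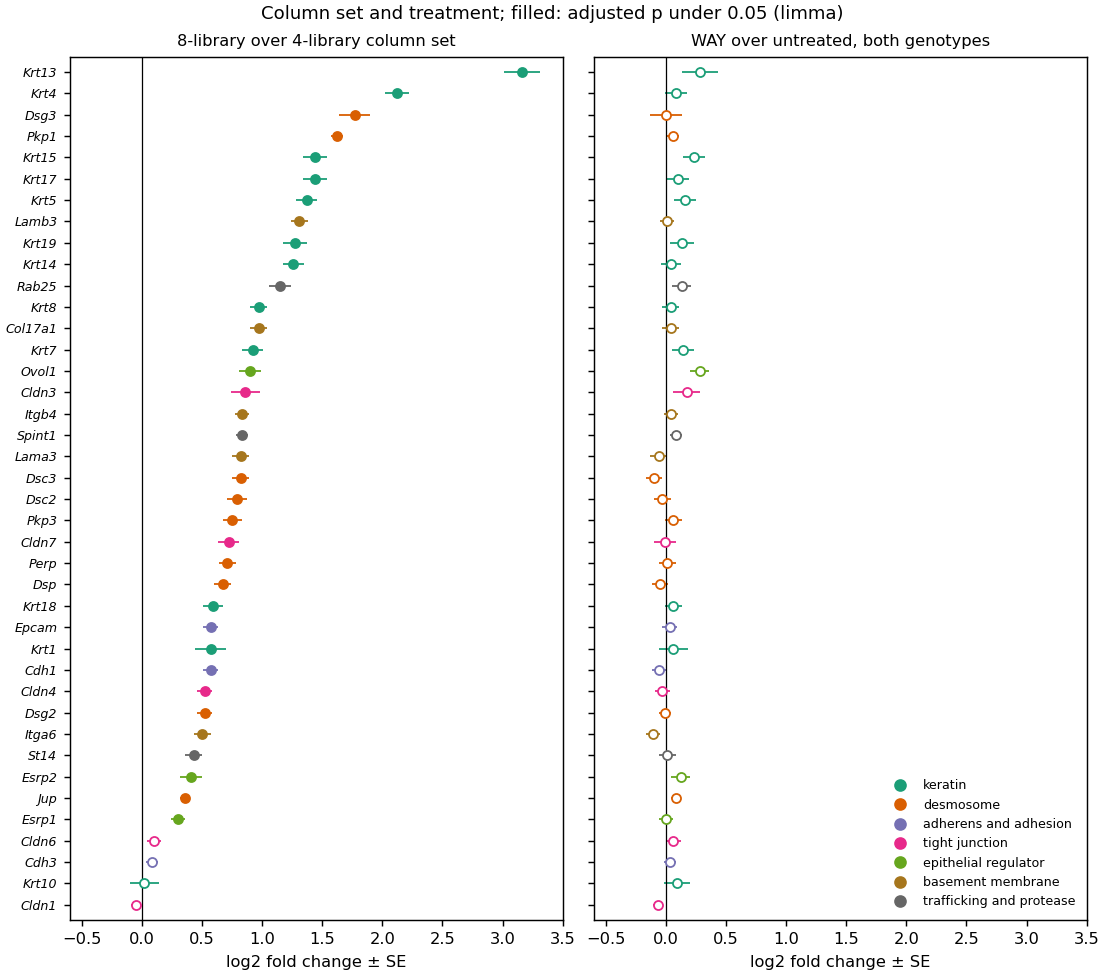
Log2 fold change of the 8-library over the 4-library set (left) and of treated over untreated embryos over both genotypes (right) for the 40 genes, with SE bars, in the order of the left panel; filled points have an adjusted p under 0.05 in limma. The left panel runs from 3.16 (Krt13) to -0.05 (Cldn1) with 36 filled points, and the right panel has none.

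Markers of other cells also differed between the sets, where 20.8% of all genes were higher and 23% lower in the 8-library set. Of 12 cartilage and bone genes 5 were higher and 5 lower in the 8-library set, with sums of 835 to 1470 FPKM in the 8-library set and 315 to 419 FPKM in the 4-library set. The bone matrix genes Ibsp (5.71 ± 0.36) and Spp1 (3.53 ± 0.24) were higher, and the cartilage collagen Col9a1 (-2.37 ± 0.2) was lower. Of 20 mesenchyme genes 5 were higher, led by Col1a1 (1.51), and 8 lower, led by Osr1 (-0.66). The embryonic globins Hbb-y (-1.9) and Hba-x (-1.97) were lower, in a blood list with 2 genes higher and 4 lower of 7. Of 8 nasal epithelium genes 4 were higher, Foxj1 of ciliated cells by 3.91, and 1 lower. Of 50 other epithelial genes 40 were higher in the 8-library set and none lower, and of 10 macrophage genes 9 were higher. Of 12 skeletal muscle genes 9 were lower, with summed levels of 199 to 432 FPKM in the 8-library set and 244 to 867 FPKM in the 4-library set. Summed FPKM of the 40 members was 1290 to 1960 in the 8-library set and 597 to 883 in the 4-library set. With the term for other epithelial genes no member passed between the sets, when 0.0142% of all genes did. In that fit 23 members were above 0 and 17 below, against 39 and 1 without the term. The mean used as the term itself differs between the sets, so the fit cannot separate the 2. The part of these other cells in the members' set difference was not tested.

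Epithelial genes outside the 40 were read beside them. Over both treatments 17 of 50 other epithelial genes fell in mutants and none rose, with a median of -0.19, when 6.6% of all genes fell and 3.27% rose. Krt6a, a keratin of periderm and appendages, fell by 0.67 ± 0.08 (adjusted p = 0.0017 in limma), Lad1, a basement membrane anchor protein, by 0.45 ± 0.06, Krt80 by 0.41 ± 0.06 and the Wnt ligand Wnt10a by 0.48 ± 0.08. Of 31 other basement membrane genes 4 fell, with a median of -0.01 over the 31, so that list as a whole was not shifted. Among the 4 were Itga3 (-0.32), Cd151 (-0.2) and Lama1 (-0.3). Itga3 and Cd151 encode laminin-receptor partners, and Lama1 a laminin chain of embryonic basement membranes.

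Marker lists of other cells that the dissection could hold give the makeup beside the genotype result. The counts below stand beside 6.6% of all genes lower and 3.27% higher in mutants. Of 15 periderm genes, which include the members Krt8, Krt17, Krt18 and Krt19, 8 fell, with summed levels of 224 to 461 FPKM in mutants and 280 to 741 FPKM in controls. Of 10 dental epithelium genes 6 fell and 1 rose, with sums of 61.2 to 63.5 FPKM in mutants and 76.9 to 115 FPKM in controls. They were led by Sostdc1 (-0.91 ± 0.06, adjusted p = 4e-05 in limma), an extracellular inhibitor of BMP and Wnt signalling, and Bmp2 was the gene that rose (0.35 ± 0.03). Of 8 nasal epithelium genes none passed, with sums of 103 to 156 FPKM in mutants and 110 to 183 FPKM in controls. Of 20 mesenchyme genes 3 rose and 1 (Msx1) fell. Of 10 neural and Schwann cell genes 2 rose, the neurofilaments Nefm (1.03 ± 0.19, adjusted p = 0.011 in limma) and Nefl (0.78 ± 0.19, adjusted p = 0.034 in limma), with sums of 41.2 to 97.4 FPKM in mutants and 36.3 to 110 FPKM in controls. Of 12 cartilage and bone genes Sox9 rose (0.32 ± 0.04, adjusted p = 0.001 in limma). The summed level of that list was 1220 to 1470 FPKM in mutants and 835 to 1100 FPKM in controls of the 8-library set, with no overlap, and 315 to 371 FPKM in mutants and 367 to 419 FPKM in controls of the 4-library set. None of 10 endothelial, 7 blood, 12 skeletal muscle, 10 macrophage or 10 stress genes passed. No marker found in the deposited table was at 0 in every library. That table held 12 of 14 listed nasal epithelium markers and 53 of 54 listed other epithelial genes, and the counts above are of genes that were tested. Whether a smaller share of epithelium in the mutant dissections made the members' lower values was not tested.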

How the data were processed

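Palatal shelves of 12 single embryos gave RNA by RNeasy micro kit, and poly(A) RNA went into TruSeq libraries after oligo(dT) selection, per the labels' protocols. The deposited table holds FPKM values that the authors made for 19083 genes. The submitters' processing notes name Novoalign 2.08.03, DESeq2 and mm10. No annotation, counting tool or strand setting is given in the sources used here. FPKM values are not counts, so no count model was fitted. The values were whole multiples of 1 read (within 0.001 read) for 19082 of 19083 genes, which gave the depth of 36.79 to 49.81 M reads.

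The 14107 genes that reached 1 FPKM in 3 or more libraries were tested on log2(FPKM + 0.5), a scale that understates changes of low genes, with limma 3.58.1 in R 4.3.3 (trend, group means plus a term for column prefix, 7 residual degrees of freedom). P-values are two-sided and adjusted by Benjamini-Hochberg over all genes at 0.05. Errors of fold changes are SE, and those of levels SD. Symbols matched for 18752 genes. Embryos are separate samples, but nothing says that they came from separate dams, so p-values may measure spread within few litters. No libraries of the same group were copies (chi-square per degree of freedom 4.16 to 97.3 between replicates). Libraries of different groups were not compared in this way.

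The 40 genes and all lists were chosen with earlier results of these data known. Every member is described, and other genes are named by the smallest p in their list (at most 4 per list). Deviations of mutants and controls with the same title number from their group means correlated at 0.32 to 0.83, and at -0.42 to 0.11 once the column set was removed. Each title number holds 1 treatment and 1 set, so removing group means and set also removes most of any pairing by title number. The second values therefore cannot show whether such pairing exists beyond the set. The fit with title number as block is given beside the results it changes. The alternatives were no prefix term, the title number as block or random effect, the 8-library set alone, terms for heterozygous embryos and for other epithelial genes, other pseudocounts (0.1 and 1), filters and scaling, and leaving out each library. A genotype by column set term was added after the values were seen. The fit was also run on simulated counts, drawn independently for each gene and library with set and genotype differences only. They held no effect of title number or of Pax9+/- genotype and no shared shift of epithelial genes. That run therefore cannot vouch for the calls where these matter.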

Additional observations from a re-analysis of the deposited data

Results flagged for a closer look

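Among 82 sets of 4 values (each member in the mutants and in the controls of the 8-library set, and the mean over members), 3 held a library far from the other 3 by Dixon's ratio at 95% (critical value 0.829), where chance gives about 1 in 20. Krt1 had 1.31 FPKM in treated mutant 3, below the 1.58 to 1.62 FPKM of the other 8-library mutants (ratio 0.876). Rab25 had 5.26 FPKM in the same library, below 5.64 to 5.68 FPKM (ratio 0.892). Cldn4 had 22.9 FPKM in untreated control 3, below 25.8 to 25.9 FPKM in the other 8-library controls (ratio 0.986). No member had genotype differences of opposite direction with every sample in treated and untreated embryos.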

How the results depend on the processing

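Over both treatments the count of 26 members called between mutants and controls was 2 with no prefix term, 17 in the 8-library set alone, 9 with a term for heterozygous embryos, 0 with the term for other epithelial genes and 15 to 28 when 1 library was left out. In untreated embryos the count of 4 was 0 with no prefix term, 2 with the title number as replicate block, 2 in the 8-library set alone, 1 with the heterozygous term, 0 with the epithelial term, 2 with no filter and 1 to 8 without 1 library. In treated embryos the count of 17 was 0 with no prefix term, 16 with the block, 10 with the heterozygous term, 0 with the epithelial term and 4 to 22 without 1 library. The count of 0 for treatment became 1 over both genotypes with title number as random effect, and in controls 1 with that effect (consensus correlation -0.13), 1 with the heterozygous term and 0 to 1 without 1 library. Between the sets the count of 36 became 0 with the epithelial term. Among the members called without it, that term brought Krt7 to 0 and turned Krt18 (0.07), Pkp3 (0.03), Perp (0.02), Esrp1 (0.04), Esrp2 (0.18) and Rab25 (0.05) over both treatments and Perp (0.02) in treated embryos. It put 17 of all 40 members above 0 over both treatments, against 1 without it. Between the sets it left 23 members above 0 and 17 below, against 39 and 1, and of the 36 called it turned 13, to Krt7 -0.15, Krt8 -0.1, Krt18 -0.35, Krt1 -0.58, Pkp3 -0.04, Perp -0.18, Epcam -0.22, Cldn3 -0.07, Cldn4 -0.01, Cldn7 -0.44, Esrp1 -0.52, Esrp2 -0.91 and St14 -0.34. The causes were not tested. Leaving out libraries or adding terms also leaves fewer degrees of freedom. The epithelial term itself follows genotype and set, so the counts and turned signs of its fits cannot tell these apart from it. With the block 23 members passed over both treatments, and Krt14, Krt18 and Pkp3 did not (Krt18 also in treated embryos). With pseudocounts of 0.1 and 1 over both treatments all 26 calls remained, and 23 of them did with no filter, with a filter at 5 FPKM and with median-ratio scaling. Krt13, at 6 reads in 1 library, is the member that depth limits most.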

Other observations

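The balance of Krt4 and Krt13, partners in the lining of the mouth, separated the genotypes in the 8-library set, and the 4-library set had no such split. The ratio of Krt4 to Krt13 was 1.3 to 1.49 in mutants and 0.687 to 0.999 in controls of the 8-library set, with no overlap. In the 4-library set it was 2.85 and 15.2 in mutants and 3.33 and 3.78 in controls, so that the mutants span the controls, where Krt13 was at most 0.447 FPKM and the highest ratio rests on 6 reads of it. The ratio was chosen after the values were seen and has no test. The genotype difference of Krt10 in the 8-library set minus that in the 4-library set was -0.61 ± 0.15 and did not pass (adjusted p = 0.5 in limma), close to the -0.68 ± 0.17 of its partner Krt1.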
